A study of Homo sapiens with 6 samples.

Results

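The genes described here encode secreted chemokines, interleukins and colony stimulating factors in J82 cells, an established line from a human bladder cancer. They were chosen by name as protein-coding rows whose symbol was CXCL, CCL, CX3CL or XCL with a number, or IL with a number and at most 1 letter, together with LIF, OSM, CLCF1, CTF1, CSF1, CSF2, CSF3 and TSLP. This rule on names used no measured value, and it took 80 of the 57820 rows of the count table. The genes were nevertheless chosen with earlier results of these data known. To compare these ligand genes with and without a disrupted FOXC1 gene, RNA-seq libraries of 3 control and 3 FOXC1 KO samples were used. The FOXC1 protein is a forkhead transcription factor. According to the study's methods, the KO cells had received the lentiCRISPR v2 vector with a single guide RNA against FOXC1 and were selected with puromycin, and the control cells were vector controls. Both groups were otherwise the same cell line in the same serum-containing medium. Neither the labels nor the methods say whether the 3 libraries of a group came from separate cultures or how many KO clones they represent, so the p-values measure the spread between these libraries, which may be technical.

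Means are given ± SD over the 3 libraries of a group (n = 3). Control libraries held 22900531 to 25013311 counts and KO libraries 18408134 to 25350908. FOXC1 transcript was 18.4, 16.9 and 19.3 CPM (counts scaled to library size) in control replicates 1 to 3, and 24.1, 22.2 and 21.1 CPM in the libraries labelled FOXC1 KO. It was higher, not lower, in the latter (log2 fold change 0.30, SE 0.091, adjusted p 0.0127 in edgeR), by 1.23-fold, which is under the threshold used here. The labels and methods state that the knockout was checked by western blot of FOXC1 protein, which was not analysed here. The FOXC1 transcript itself does not check the labels, and "KO" below stands for the libraries labelled FOXC1 KO wherever a direction is given. The keratin gene KRT8 was at 1660 ± 266 CPM in control and 1092 ± 60.5 CPM in KO libraries. Of 14 epithelial marker genes 7 reached 1 CPM in every library of each group, and the uroplakin gene UPK3A had 0 counts in every library.

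Chemokines are small secreted proteins that guide leukocytes through G protein-coupled receptors, and their CXC members with an ELR sequence before the first cysteines attract neutrophils. The IL1 family and the IL6 family are inflammatory cytokines, the former signalling through MyD88 to NF-kB and the latter through the shared receptor chain gp130 to STAT3. Colony stimulating factors direct the growth of macrophages and granulocytes, and epithelial tumours, bladder tumours included, are known to secrete several of these ligands.

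Of the 80 ligand genes, 28 held enough reads to be tested and 52 did not. Calls required an adjusted p below 0.05 in edgeR and a difference of more than 1.3-fold. Among the 28 tested ligand genes 11 were higher in KO (39.3%, where 7.57% of all 15647 tested genes were called higher) and 3 were lower (10.7%, where 8.39% of all tested genes were called lower). The higher genes were IL33, IL1B, IL11, CXCL8, CXCL1, IL24, CSF2, IL6, IL32, LIF and TSLP, and the lower genes were CSF1, CXCL10 and IL7. The median log2 fold change of the tested ligand genes was 0.15, with quartiles of -0.31 and 1.03, beside -0.001, -0.19 and 0.18 over all tested genes. The values of control and KO libraries did not overlap for 20 of the 28 genes (71.4%, beside 41.3% of all tested genes). These counts include only genes that passed the filter on low counts, which asked for 0.419 CPM or more in at least 3 libraries. IL24 passed it through the KO libraries alone, with 0 of 3 control libraries at that level. IL33 was at that level in 2 of 3 control and 3 of 3 KO libraries, so it too needed KO libraries to pass. The places of these 2 genes among the higher genes do not count as support. The other 9 higher genes and the 3 lower ones were at that level in all 3 libraries of each group. CTF1 and IL23A, neither of them called, were at it in 3 of 3 control and 2 of 3 KO libraries. In a bulk culture, a change in the share of cells that express a ligand cannot be told apart from a change in its RNA per cell.

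**Figure D1:**
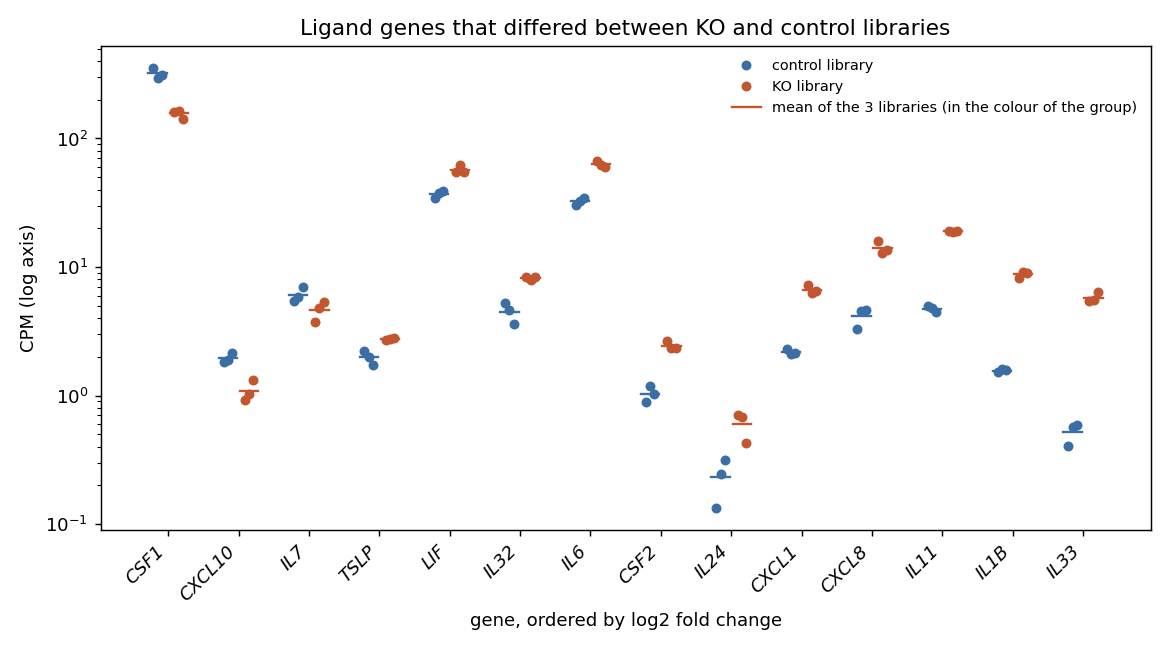
Level of each of the 14 called ligand genes in each library in CPM on a log axis, with 3 control and 3 KO points per gene and a short line at each group mean. The points of the groups do not overlap for any of the 14 genes.

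The ELR CXC chemokines were examined first. All 6 lie on chromosome 4 between positions 74606236 and 74964913 (GRCh37, as for all gene coordinates). CXCL8 (ENSG00000169429.6, positions 74606236 to 74609433, plus strand), the neutrophil attractant interleukin 8, was at 3.30, 4.51 and 4.60 CPM in control and 15.9, 12.8 and 13.6 CPM in KO libraries. The lowest KO value was above the highest control value, and the mean rose from 4.14 ± 0.726 to 14.1 ± 1.62 CPM (log2 fold change 1.76, SE 0.13, adjusted p 8.47e-12 in edgeR). CXCL1 (ENSG00000163739.4, positions 74735110 to 74737025, plus strand), another ligand of the neutrophil receptor CXCR2, was at 2.32, 2.09 and 2.16 CPM in control and 7.29, 6.27 and 6.46 CPM in KO libraries. It rose from 2.19 ± 0.117 to 6.67 ± 0.541 CPM (log2 fold change 1.60, SE 0.14, adjusted p 7.78e-10 in edgeR). The neighbouring genes CXCL3 and CXCL2 did not pass the test. CXCL3 was at 1.07, 1.02 and 1.10 CPM in control and 1.63, 1.23 and 1.32 CPM in KO libraries, with no overlap (log2 fold change 0.37, SE 0.23, adjusted p 0.251 in edgeR). CXCL2 was at 1.03, 1.02 and 1.42 CPM in control and 1.41, 1.35 and 1.11 CPM in KO libraries, which overlapped (log2 fold change 0.14, SE 0.24, adjusted p 0.697 in edgeR). CXCL1, CXCL2 and CXCL3 are close paralogs, so the division of their reads is uncertain where a read matches more than 1 of them. CXCL5 and CXCL6, the remaining genes of the cluster, were not tested, with 3 and 8 counts over the control and 11 and 12 counts over the KO libraries. 

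Because the paralogs CXCL1, CXCL2 and CXCL3 differed in their log2 fold change, the 200 bases before their annotated starts are shown, with CXCL8 from the same cluster. The sequences are from RefSeq on GRCh38.p14 and are written 5′ to 3′ on the strand of the gene. Capitals mark matches to the NF-kB letters GGNNTTTCC (reverse strand GGAAANNCC), where N is any base, and to the AP-1 letters TGANTCA, whose reverse strand reads the same. The stretches lie at chr4:73869193-73869392 (CXCL1, plus), chr4:74099196-74099395 (CXCL2, minus), chr4:74038690-74038889 (CXCL3, minus) and chr4:73740369-73740568 (CXCL8, plus).
CXCL1: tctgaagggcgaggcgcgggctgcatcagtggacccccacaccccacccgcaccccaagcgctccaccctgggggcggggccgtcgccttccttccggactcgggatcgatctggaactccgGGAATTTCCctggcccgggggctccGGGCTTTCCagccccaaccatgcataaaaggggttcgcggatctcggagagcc
CXCL2: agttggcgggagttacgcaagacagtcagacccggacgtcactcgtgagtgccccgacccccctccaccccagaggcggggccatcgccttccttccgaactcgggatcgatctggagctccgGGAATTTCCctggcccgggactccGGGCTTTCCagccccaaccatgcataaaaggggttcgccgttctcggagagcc
CXCL3: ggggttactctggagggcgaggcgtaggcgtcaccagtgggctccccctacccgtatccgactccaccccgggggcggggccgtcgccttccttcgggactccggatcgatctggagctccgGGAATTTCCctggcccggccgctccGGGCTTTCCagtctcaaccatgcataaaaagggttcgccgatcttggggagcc
CXCL8: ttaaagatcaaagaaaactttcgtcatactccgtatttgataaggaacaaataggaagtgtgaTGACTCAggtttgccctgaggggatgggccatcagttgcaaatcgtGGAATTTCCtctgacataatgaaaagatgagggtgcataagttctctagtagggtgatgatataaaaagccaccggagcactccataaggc
Each of the 3 paralogs held 2 NF-kB matches, beginning 78 and 53 bases before the start in CXCL1 and CXCL3, and 77 and 53 bases before it in CXCL2. Aligned over these stretches, CXCL1 was 78.2% identical to CXCL2 and 80.8% identical to CXCL3, and CXCL2 was 77.4% identical to CXCL3. The CXCL8 stretch was 46.6% identical to that of CXCL1 and held 1 NF-kB match and 1 AP-1 match, beginning 91 and 137 bases before the start. The pair of NF-kB matches was thus present at the called CXCL1 and at the uncalled CXCL2 and CXCL3.

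Of the other CXC chemokines 3 of 8 were tested, and CXCL10 was called lower while CXCL11 and CXCL16 were not called. CXCL10 (ENSG00000169245.4, chromosome 4, 76942271 to 76944650, minus strand), an interferon-induced ligand of CXCR3, a receptor on T cells, was at 1.83, 1.89 and 2.16 CPM in control and 0.925, 1.03 and 1.32 CPM in KO libraries. Every KO value was below every control value, and the mean fell from 1.96 ± 0.179 to 1.09 ± 0.204 CPM (log2 fold change -0.83, SE 0.22, adjusted p 0.00419 in edgeR). Its neighbour CXCL11, a ligand of the same receptor, was at 0.965 ± 0.216 CPM in control and 1.05 ± 0.289 CPM in KO libraries (log2 fold change 0.13, adjusted p 0.769 in edgeR). The sign of the CXCL11 value turned when control replicate 3 was left out (-0.0036). CXCL16, a membrane-bound chemokine, was at 2.30 ± 0.639 and 1.89 ± 0.104 CPM, and control replicate 1 stood above the other libraries at 3.03 CPM. Of the CC, CX3C and XC chemokines only CCL26 and CCL28 of 19 were tested, and neither was called. CCL26, an eosinophil attractant, was at 3.53, 1.76 and 1.85 CPM in control and 1.80, 1.71 and 1.96 CPM in KO libraries, and its log2 fold change of -0.37 (adjusted p 0.230 in edgeR) was 0.0016 without control replicate 1. CCL28, a mucosal chemokine, was at 2.68, 2.54 and 2.36 CPM in control and 1.80, 1.98 and 1.87 CPM in KO libraries (log2 fold change -0.41, SE 0.18, adjusted p 0.0797 in edgeR) with no overlap. The 6 CC genes beside each other on chromosome 17, CCL2, CCL7, CCL11, CCL8, CCL13 and CCL1, were all left untested by the filter.

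**Figure D2:**
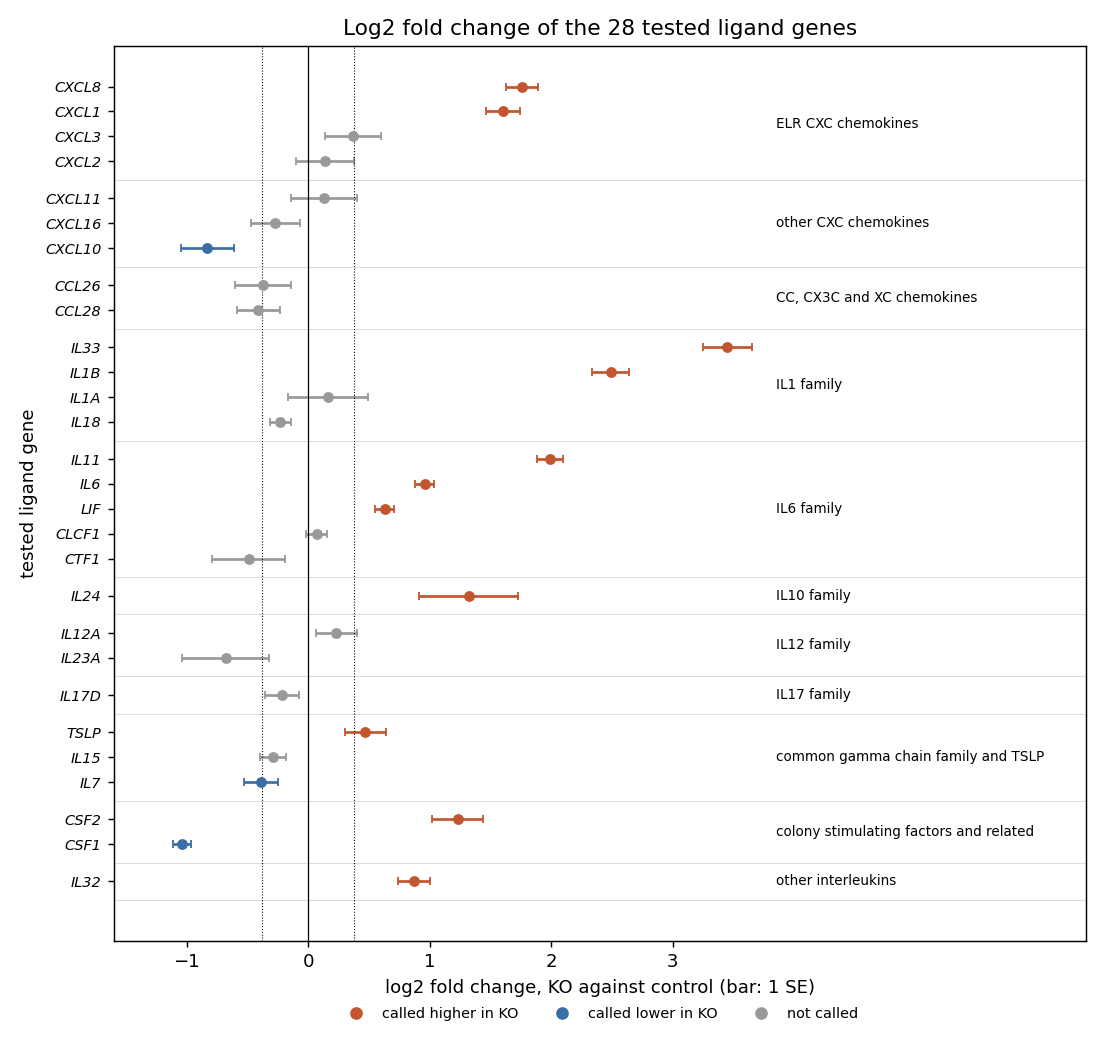
Log2 fold change of KO against control for the 28 tested ligand genes, grouped by family, with bars of 1 SE, a solid line at 0 and dotted lines at the 1.3-fold threshold. The called genes run from IL33 at 3.45 to CSF1 at -1.04, and the IL6 and IL1 families hold 5 of the 11 higher genes.

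In the IL1 family, IL33 and IL1B rose while IL1A and IL18 were not called. IL33 (ENSG00000137033.7, chromosome 9, 6215786 to 6257983, plus strand), a nuclear alarmin released from damaged epithelial cells, was at 0.402, 0.574 and 0.590 CPM in control and 5.44, 5.52 and 6.38 CPM in KO libraries. The groups were far apart, and the mean rose 10.9-fold, from 0.522 ± 0.105 to 5.78 ± 0.522 CPM (log2 fold change 3.45, SE 0.20, adjusted p 7.17e-14 in edgeR). IL1B (ENSG00000125538.7, chromosome 2, 113587328 to 113594393, minus strand), a pyrogenic cytokine that needs cleavage by caspase-1, was at 1.52, 1.60 and 1.57 CPM in control and 8.21, 9.13 and 9.02 CPM in KO libraries. It rose 5.62-fold (log2 fold change 2.49, SE 0.15, adjusted p 6.66e-14 in edgeR), with a gap between the groups far wider than the spread within either. IL1A, the neighbouring gene that acts on the same receptor, was at 0.535, 1.11 and 0.748 CPM in control and 1.36, 0.953 and 0.468 CPM in KO libraries. These overlapped (log2 fold change 0.16, SE 0.33), and the sign turned without control replicate 1 (-0.048) or KO replicate 1 (-0.16). IL18, another substrate of caspase-1, was the most abundant IL1 family transcript at 25.3, 27.4 and 24.6 CPM in control and 21.9, 23.2 and 20.7 CPM in KO libraries. Every KO value was below every control value (log2 fold change -0.23, SE 0.088, adjusted p 0.0474 in edgeR), and the fold of 1.17 was under the threshold.

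Of the IL6 family, 3 of 5 tested genes rose. IL11 (ENSG00000095752.2, chromosome 19, 55875750 to 55881831, minus strand), a cytokine of epithelial and stromal repair, was at 5.0, 4.80 and 4.45 CPM in control and 19, 18.6 and 19.1 CPM in KO libraries. Its replicates were close together, and the mean rose 3.98-fold, from 4.75 ± 0.279 to 18.9 ± 0.286 CPM (log2 fold change 1.99, SE 0.11, adjusted p 1.02e-14 in edgeR). IL6 (ENSG00000136244.7, chromosome 7, 22765503 to 22771621, plus strand), the inducer of the acute phase response, was at 30.3, 32.8 and 34.3 CPM in control and 66.9, 62.3 and 60.5 CPM in KO libraries. It rose 1.94-fold (log2 fold change 0.96, SE 0.079, adjusted p 1.27e-10 in edgeR), without overlap. LIF (ENSG00000128342.4, chromosome 22, 30636442 to 30642748, minus strand), which maintains stem cells in the mouse, was at 34.6, 37.8 and 38.7 CPM in control and 54.7, 61.9 and 55.2 CPM in KO libraries. It rose 1.55-fold (log2 fold change 0.63, SE 0.080, adjusted p 4.76e-07 in edgeR), also without overlap. CLCF1, a ligand of the CNTF receptor, was at 22.2, 22.0 and 21.4 CPM in control and 23.1, 23.5 and 22.1 CPM in KO libraries, and the groups overlapped (log2 fold change 0.07, SE 0.086). CTF1, cardiotrophin, was at 1.07, 1.43 and 1.22 CPM in control and 0.381, 1.39 and 0.766 CPM in KO libraries (log2 fold change -0.49, adjusted p 0.232 in edgeR). KO replicate 2 lay among the control values of CTF1, and without it the gene was called lower (log2 fold change -1.06, adjusted p 0.0226). The gene beside LIF, OSM, which encodes another gp130 ligand, was not tested.

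The starts of 4 further called genes are shown, since CXCL10 fell and IL6, IL11 and IL32 rose and each held at least 1 of the same matches. They are 200 bases each from RefSeq on GRCh38.p14, on the strand of the gene, at chr4:76023498-76023697 (CXCL10, minus), chr7:22727000-22727199 (IL6, plus), chr19:55370464-55370663 (IL11, minus) and chr16:3065203-3065402 (IL32, plus). Capitals mark the same letters as above.
CXCL10: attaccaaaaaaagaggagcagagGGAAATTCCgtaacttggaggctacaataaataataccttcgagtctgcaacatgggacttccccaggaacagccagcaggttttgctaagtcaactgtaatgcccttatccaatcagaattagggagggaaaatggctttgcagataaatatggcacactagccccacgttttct
IL6: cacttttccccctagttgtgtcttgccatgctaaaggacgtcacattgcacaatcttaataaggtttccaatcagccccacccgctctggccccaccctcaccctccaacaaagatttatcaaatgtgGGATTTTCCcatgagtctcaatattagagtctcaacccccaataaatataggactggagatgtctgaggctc
IL11: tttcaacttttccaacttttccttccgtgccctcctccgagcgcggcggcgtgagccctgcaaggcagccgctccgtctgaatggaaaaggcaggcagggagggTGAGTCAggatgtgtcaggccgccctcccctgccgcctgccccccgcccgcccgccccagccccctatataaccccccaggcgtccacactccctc
IL32: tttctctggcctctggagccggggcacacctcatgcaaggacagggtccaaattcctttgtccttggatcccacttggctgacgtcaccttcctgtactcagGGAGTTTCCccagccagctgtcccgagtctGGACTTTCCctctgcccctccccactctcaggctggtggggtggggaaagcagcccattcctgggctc
In CXCL10 the match is to the reverse-strand NF-kB letters, 176 bases before the start. IL6 held an NF-kB match 72 bases before its start, and IL11 held an AP-1 match 96 bases before its start. IL32 held NF-kB matches 98 and 68 bases before the start shown. That IL32 start was picked because its window held NF-kB letters, while the first entry was shown for every other gene. Over the 250 bases before each start, searched on both strands, the NF-kB letters were found in 10 of the 29 windows of the 20 tested ligand genes with an entry (34.5%), beside 5.48% of all 35116 windows. Those 10 windows belonged to 10 genes, of which 5 were called higher (CXCL1, CXCL8, IL6, IL32 and TSLP), 1 lower (CXCL10) and 4 not called (CXCL2, CXCL3, CXCL11 and IL17D). That is 5 of the 10 higher genes with an entry and 4 of the 9 uncalled ones, and IL33, IL1B, IL11, CSF2 and IL24 were higher without a match. The AP-1 letters were in 7 of the 29 windows (24.1%), beside 6.57% of all windows, and in 6 genes, 2 of them among the 10 higher and 4 among the 9 uncalled genes with an entry. The forkhead letters TGTTTAC (reverse strand GTAAACA) were in 0 of the 29 windows and in 2.98% of all windows. Neighbouring genes and alternative starts share sequence, so the windows are not independent, and matches are given as letters found in these windows, not as bound sites. CSF1, LIF, IL7, CLCF1, IL18, IL15, CTF1 and CXCL16 were without an entry.

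**Figure D3:**
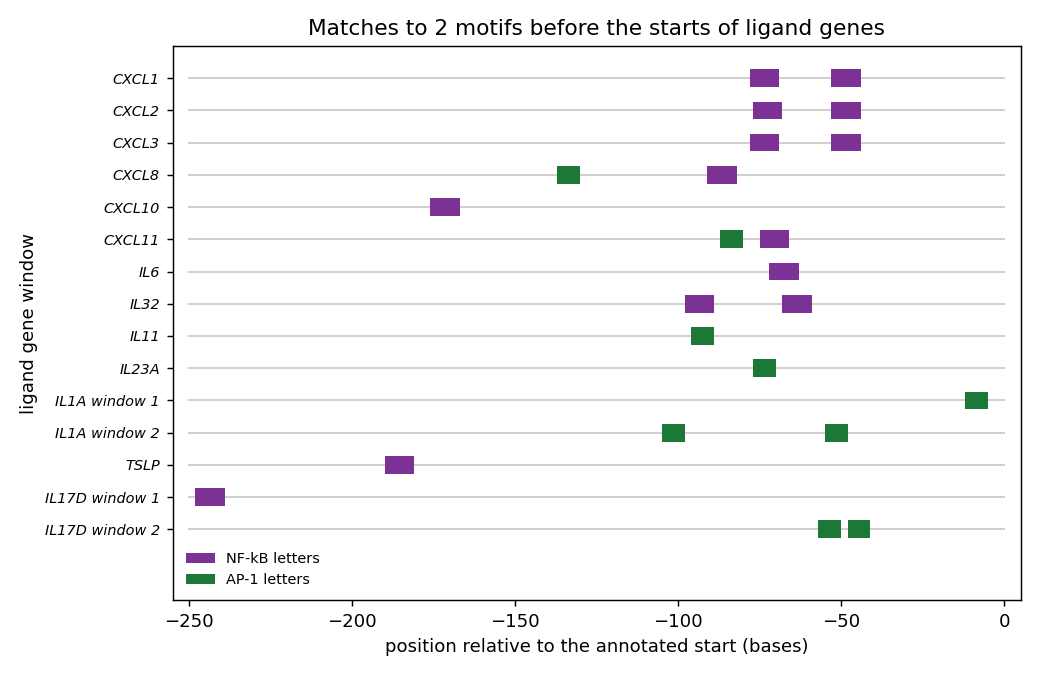
Positions of NF-kB and AP-1 letters in the 250 bases before annotated starts of ligand genes, in bases relative to the start, with 1 line for each window that held a match. CXCL1, CXCL2 and CXCL3 hold a pair of NF-kB matches at nearly the same positions, although only CXCL1 was called.

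The colony stimulating factors differed in direction. CSF1 (ENSG00000184371.9, chromosome 1, 110452864 to 110473614, plus strand), the growth factor of macrophages, was at 354, 297 and 312 CPM in control and 162, 165 and 143 CPM in KO libraries. The highest KO value was well below the lowest control value, and the mean fell from 321 ± 29.7 to 156 ± 11.8 CPM (log2 fold change -1.04, SE 0.076, adjusted p 1.02e-11 in edgeR). CSF2 (ENSG00000164400.4, chromosome 5, 131409482 to 131411863, plus strand), which encodes GM-CSF, was at 0.892, 1.19 and 1.02 CPM in control and 2.67, 2.34 and 2.34 CPM in KO libraries. It rose (log2 fold change 1.23, SE 0.21, adjusted p 3.53e-05 in edgeR). CSF2 was the only gene tested among the 5 neighbours IL3, CSF2, IL5, IL13 and IL4. CSF3, which encodes G-CSF, was left untested with 3 counts over the control and 15 counts over the KO libraries, and IL34, the other ligand of the CSF1 receptor, with 27 and 23 counts.

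The remaining called genes were IL32, IL24, TSLP and IL7. IL32, a cytokine that induces TNF and IL6, was at 5.22, 4.67 and 3.58 CPM in control and 8.38, 7.90 and 8.29 CPM in KO libraries, and rose (log2 fold change 0.87, SE 0.13, adjusted p 7.64e-06 in edgeR). IL24, the only tested gene of the IL10 family, held 3, 6 and 8 counts in control and 13, 17 and 10 counts in KO libraries. It was called higher (log2 fold change 1.32, SE 0.41, adjusted p 0.0149 in edgeR), but the adjusted p was 0.0708 without control replicate 1, 0.0539 without KO replicate 1 and 0.116 in DESeq2, and without KO replicate 2 the gene no longer passed the filter. TSLP, an epithelial cytokine that acts on dendritic cells, was at 2.23, 2.01 and 1.73 CPM in control and 2.72, 2.74 and 2.81 CPM in KO libraries, so the groups were apart (log2 fold change 0.47, SE 0.17, adjusted p 0.0405 in edgeR). That call was lost without control replicate 2 (adjusted p 0.0836), control replicate 3 (0.195), KO replicate 1 (0.0703), KO replicate 2 (0.0821) or KO replicate 3 (0.104), in DESeq2 (0.193) and with no filter on low counts (0.0808). IL7, a survival factor of lymphocytes, was at 5.40, 5.86 and 7.0 CPM in control and 3.70, 4.84 and 5.32 CPM in KO libraries, and the groups were apart by a narrow margin. It was called lower (log2 fold change -0.39, SE 0.14, adjusted p 0.0396 in edgeR) at 1.31-fold, just past the threshold. The adjusted p of IL7 was 0.232 without control replicate 3 (log2 fold change -0.27), 0.192 without KO replicate 1 (-0.27), 0.071 without KO replicate 2 and 0.144 in DESeq2.

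The other tested genes outside these families were not called. IL15, which sustains natural killer cells, was at 9.17 ± 0.694 CPM in control and 7.5 ± 0.156 CPM in KO libraries, without overlap (log2 fold change -0.29, SE 0.11, adjusted p 0.0484 in edgeR), and its 1.22-fold difference was under the threshold. IL12A, a subunit of IL12, was at 2.19, 2.79 and 3.46 CPM in control and 3.21, 3.77 and 2.98 CPM in KO libraries, and IL17D at 4.82, 4.43 and 4.56 CPM and 3.97, 3.73 and 4.17 CPM. The groups overlapped for IL12A (log2 fold change 0.23) and not for IL17D (-0.22). IL23A, a subunit of IL23, was not called (log2 fold change -0.68, SE 0.36, adjusted p 0.161 in edgeR) from 45 counts over the control and 26 over the KO libraries, without overlap.

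Of the 52 untested ligand genes, 26 had 0 counts in every library. A total of 0 still leaves room for an expected total of up to about 3 counts over the 6 libraries. A further 19 held 1 to 9 counts over the 6 libraries. The 7 with 10 or more counts included, beside CXCL5, CXCL6, CSF3 and IL34, CXCL12 (24 counts over the control and 12 over the KO libraries), CXCL14 (12 and 17) and IL36B (17 and 20). Genes at 0 were 10 of the 19 CC, CX3C and XC chemokines, 4 of the 8 members of the common gamma chain group with TSLP, and 3 of the 6 genes each of the IL10 and IL17 families. At this depth no ligand of the IL10 family other than IL24 and no XC chemokine held enough reads for a comparison.

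To compare the ligands with each other, levels were expressed per kilobase of exon (RPKM). In control libraries CSF1 had the highest level at 61.3 ± 5.67 RPKM, followed by CLCF1 (11.9 ± 0.218), IL18 (9.88 ± 0.56), LIF (9.57 ± 0.552) and IL6 (7.51 ± 0.459), where IL18 and LIF were within their SD of each other. In KO libraries CSF1 was still first at 29.9 ± 2.25 RPKM, followed by LIF (14.8 ± 1.03), IL6 (14.6 ± 0.761), CLCF1 (12.5 ± 0.401), IL18 (8.42 ± 0.489), IL11 (7.06 ± 0.107) and CXCL8 (5.46 ± 0.626). LIF and IL6 were within their SD of each other in KO libraries. IL33 moved from rank 28 to rank 13 and IL1B from rank 23 to rank 10 in this order, and both remained well under the level of CSF1.

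As a share of all ligand reads, CSF1 accounted for 67.2%, 62.2% and 63.6% in control and 37.4%, 37.7% and 35.4% in KO libraries. The summed level of the 80 genes was 527, 477 and 491 CPM in control and 432, 437 and 404 CPM in KO libraries, so KO libraries were lower in the sum. Without CSF1 the sum was 172, 180 and 179 CPM in control and 270, 272 and 261 CPM in KO libraries, so the order of the groups turned. IL6 made up 5.76% to 6.97% of the ligand reads in control and 14.3% to 15.5% in KO libraries, LIF 6.58% to 7.93% and 12.7% to 14.2%, and IL11 0.905% to 1.01% and 4.25% to 4.73%. These shares are not per length.

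**Figure D4:**
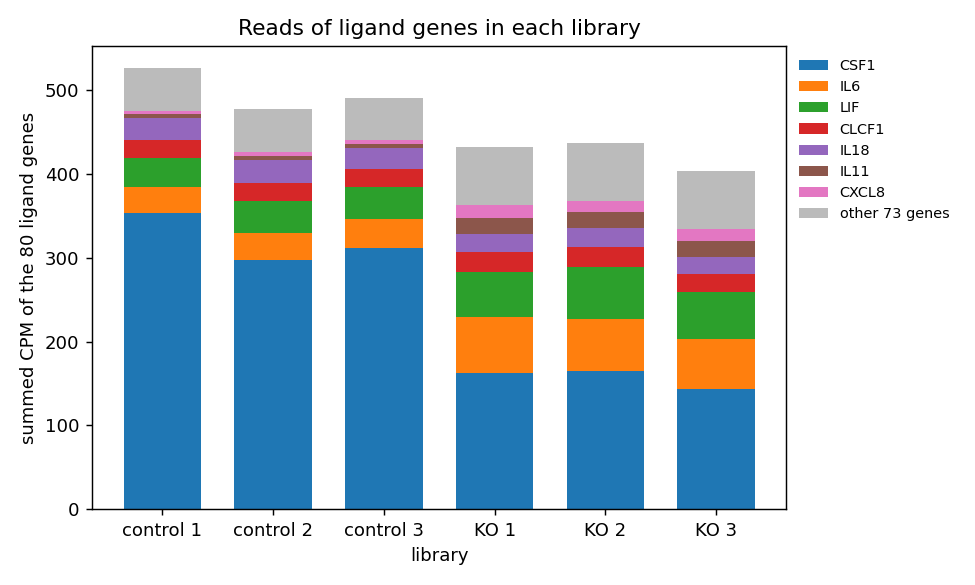
Summed CPM of the 80 ligand genes in each of the 6 libraries, stacked by the most abundant genes. CSF1 takes 62.2% to 67.2% of the bar in control and 35.4% to 37.7% in KO libraries, and the other genes sum to 172 to 180 and 261 to 272 CPM.

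The receptors of these ligands were then examined. Of 24 chemokine receptor genes in the table, 7 were tested, 3 were higher in KO (42.9%, beside 7.57% of all tested genes) and 0 lower (beside 8.39% of all tested genes), and the median log2 fold change was 0.27, beside -0.001 over all tested genes. CCR1, which binds several CC chemokines, was at 7.54 ± 0.502 CPM in control and 25.3 ± 0.871 CPM in KO libraries (log2 fold change 1.74, SE 0.098, adjusted p 2.97e-14 in edgeR). CCR3, the eotaxin receptor, held 1, 2 and 5 counts in control and 18, 31 and 31 counts in KO libraries (log2 fold change 3.36, SE 0.41, adjusted p 2.53e-07 in edgeR). CCR3 passed the filter on low counts through the KO libraries alone, so its place among the 3 higher genes does not count as support. CCRL2, an atypical receptor that binds chemerin, rose from 9.32 ± 0.894 to 15.7 ± 0.125 CPM (log2 fold change 0.75, SE 0.10). These 3 genes lie on chromosome 3 between 46172382 and 46454488, and the annotated span of CCR3 (46172382 to 46308197) contains CCR1 (46243202 to 46249804), so reads in the overlap are of uncertain origin. CXCR1, a receptor of CXCL8, had 0 counts in every library, and CXCR2, the receptor of CXCL1 and CXCL8, held 1, 2 and 1 counts in control and 0 counts in each KO library. CXCR3, the receptor of CXCL10, held at most 1 count in any library.

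Of 47 cytokine receptor genes 27 were tested, 8 were higher (29.6%, beside 7.57% of all tested genes) and 3 lower (11.1%, near the 8.39% of all tested genes), with a median log2 fold change of 0.11. CSF1R, the receptor of CSF1, was at 1.13 ± 0.16 CPM in control and 5.98 ± 0.381 CPM in KO libraries (log2 fold change 2.40, SE 0.17, adjusted p 4.01e-12 in edgeR), in the direction opposite to its ligand. IL31RA (log2 fold change 1.03), IL21R (1.10), IL27RA (0.77), IL1R1 (0.49) and IL17RD (0.47) also rose. IL1R1, the signalling receptor of IL1A and IL1B, was at 21.8 ± 1.31 and 30.6 ± 2.09 CPM. IL7R, the receptor chain for IL7 and TSLP, fell from 183 ± 5.78 to 130 ± 10.5 CPM (log2 fold change -0.49, SE 0.072, adjusted p 5.06e-06 in edgeR). IL22RA1 (-0.85, adjusted p 0.0187 in edgeR) and IL1RL2 (-0.77, adjusted p 0.0243) were called lower as well. The IL22RA1 call was lost without control replicate 2 (adjusted p 0.0744), without KO replicate 3 (0.148) and in DESeq2 (0.12), and the IL1RL2 call without control replicate 3 (0.0984), KO replicate 2 (0.0609) or KO replicate 3 (0.129) and in DESeq2 (0.163). IL6ST, which encodes gp130, was at 318 ± 21.2 CPM in control and 402 ± 33.5 CPM in KO libraries (log2 fold change 0.34, adjusted p 0.000742 in edgeR), under the fold threshold. The partner chains of gp130 were not called, with log2 fold changes of -0.39 for IL6R, 0.17 for LIFR, 0.09 for OSMR and 0.10 for IL11RA. IL1RL1, the receptor of IL33, was left untested with 0, 0 and 2 counts in control and 9, 4 and 5 counts in KO libraries. CSF2RA and CSF2RB, the receptor chains for GM-CSF, had 0 counts in every library. CSF2RA lies in a region shared by the X and Y chromosomes, where reads match more than 1 place, so its count of 0 does not bear on its expression.

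**Figure D5:**
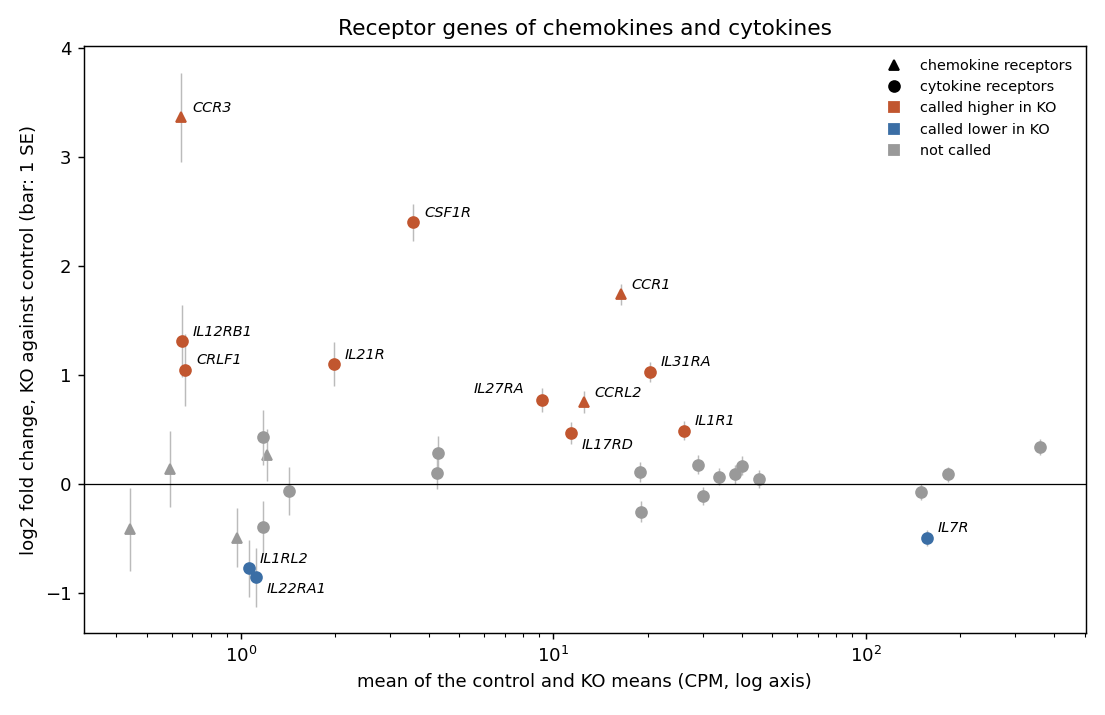
Log2 fold change (bars of 1 SE) of the tested chemokine receptor (triangles) and cytokine receptor (circles) genes against their mean level in CPM on a log axis. CCR3, CSF1R and CCR1 have the highest values, and IL7R at -0.49 is the only called gene below 0 with a mean over 100 CPM.

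Genes of the NF-kB system, which many of these ligands activate and which activates many of them, were all tested, and 9 of 30 were higher (30%, beside 7.57% of all tested genes) and 0 lower (beside 8.39%), with a median log2 fold change of 0.13. The 6 with the smallest p were RELB (log2 fold change 0.69), an NF-kB subunit, TNIP1 (0.59), TRAF3 (0.58), NFKBIZ (0.50), IRAK2 (0.44) and NFKBIE (0.43). Several of these are inhibitors or feedback genes, TNIP1, TRAF3 and NFKBIE among them. The NFKBIE value fell under the 1.3-fold threshold, at 0.36, without control replicate 2 and again without KO replicate 2. BIRC2 and TNFAIP3, also among the 9, fell under it as well. BIRC2 did so without control replicate 1 (0.31) or KO replicate 3 (0.30), with library size alone (0.37) and with a mean of at least 50 counts (0.37). TNFAIP3 did so without control replicate 1 (0.36) or KO replicate 1 (0.29). Of 19 genes of the JAK, STAT and SOCS list 2 were higher (10.5%, near the 7.57% of all tested genes) and 4 lower (21.1%, beside 8.39% of all tested genes). The median log2 fold change was 0.11, and STAT3 was at -0.03. STAT5B (0.48) and PIAS3 (0.40), an inhibitor of STAT3, rose. PTPN6 (-0.93), a phosphatase, SOCS6 (-0.44), SOCS3 (-0.39), a feedback inhibitor of gp130, and JAK3 (-1.08) fell. Several of these lie at the threshold, since leaving out KO replicate 2 gave 0.38 for PIAS3, -0.37 for SOCS6 and -0.36 for SOCS3, under 1.3-fold in each case. SOCS3 was also under it without control replicate 1 (-0.38) and control replicate 3 (-0.36). The JAK3 call (adjusted p 0.0463 in edgeR) was lost without control replicate 1 (0.0507), control replicate 2 (0.332), KO replicate 2 (0.203) or KO replicate 3 (0.105), in DESeq2 (0.226) and with no filter on low counts (0.0582).

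Of 20 tested genes for antagonists and processing of these ligands, 3 were higher (15%, beside 7.57% of all tested genes) and 2 lower (10%, near the 8.39% of all tested genes), with a median log2 fold change of -0.03. ZC3H12A, which encodes an RNase that degrades IL6 mRNA, rose by a log2 fold change of 0.59, as did NLRP1 (0.49), an inflammasome sensor, and GSDME (0.47), a pore-forming protein. SIGIRR (-1.34), an inhibitory receptor of the IL1 receptor family, and DPP4 (-0.57), a protease that trims CXCL10, fell. Over the 5 lists 25 of 103 tested genes were higher (24.3%, beside 7.57% of all tested genes) and 9 lower (8.74%, a share near the 8.39% of all tested genes).

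Markers of other cell types were given by the same rule, since leukocytes, endothelial cells and fibroblasts express many of these ligands and receptors. Of 17 leukocyte markers 3 were tested, 2 were higher (66.7%, beside 7.57% of all tested genes) and 0 lower (beside 8.39%). The higher ones were CSF1R, which is also in the receptor list, and CD14 (3.52 and 5.39 CPM in the means). The summed level of the leukocyte list was 5.04 to 5.78 CPM in control and 12.2 to 13.4 CPM in KO libraries. The T cell genes CD3D, CD3E and CD2 and the B cell gene MS4A1 had 0 counts in every library, and PTPRC, which encodes the leukocyte antigen CD45, held 3, 3 and 4 counts in control and 8, 6 and 9 counts in KO libraries. Of 6 endothelial markers 2 were tested, 1 was higher (50%, beside 7.57% of all tested genes) and 0 lower (beside 8.39%). The higher one, CDH5, held 0, 0 and 1 counts in control and 18, 18 and 26 counts in KO libraries. CDH5 passed the filter on low counts through the KO libraries alone, so its call does not count as support. The endothelial list summed to 0.63 to 1.02 CPM in control and 1.59 to 1.9 CPM in KO libraries. The difference in that sum is mostly that of CDH5, with means of 0.0131 and 0.933 CPM. KDR was at 0.529 and 0.484 CPM and VWF at 0.178 and 0.258 CPM, so the sum does not stand for the whole list. The epithelial list summed to 3182 to 4004 CPM in control and 2490 to 2768 CPM in KO libraries. Of its 7 tested genes 6 were lower (85.7%, beside 8.39% of all tested genes) and 0 higher (beside 7.57%). The lower ones were EPCAM (log2 fold change -0.86), KRT19 (-0.70), KRT8 (-0.60), KRT18 (-0.51), PPARG (-0.45) and GATA3 (-0.42). The fibroblast list summed to 794 to 899 and 643 to 667 CPM. Of its 6 tested genes 1 was higher (16.7%, beside 7.57% of all tested genes) and 3 lower (50%, beside 8.39%). COL1A1 was higher (log2 fold change 2.21), and COL1A2 (-1.34), COL3A1 (-1.18) and DCN (-0.82) were lower. The part of these markers in the ligand results was not tested.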

How the data were processed

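Paired 75-base reads of mRNA libraries had been aligned by the authors to hg19 with STAR and assigned to GENCODE version 19 genes with featureCounts of Subread, and the deposited table holds raw counts per gene and library. Tool versions, strand and multiple-match settings are not given in the sources used here. The table held 0 columns of other samples. Symbols came from a later GENCODE annotation of GRCh37, the assembly of hg19, which matched 55538 of 57820 identifiers (96.05%). CCL3, CCL4, CCL5, CCL14, CCL15, CCL16, CCL18 and CCL23 had no matching identifier and were not analysed here.

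Counts were kept with filterByExpr, normalized with TMM and tested in edgeR 4.0.16 (R 4.3.3, quasi-likelihood F test, robust) over all 15647 kept genes, with Benjamini-Hochberg adjustment. Calls needed an adjusted p below 0.05 and more than 1.3-fold, the thresholds of the study, whose tool DESeq2 (1.42.0 here) was an alternative. SEs were derived from the F statistic. CPM used TMM-scaled library sizes. RPKM used exon lengths of the later annotation and is approximate. Promoters were searched with Python 3.11.15 and aligned with Biopython 1.88. Alternatives were DESeq2, other size factors, other count filters and fold thresholds, the replicate number as a block, and leaving out each library. The procedure was checked on simulated counts. Between libraries of a group the chi-square per gene was 2.94 to 10.11, so the replicates were treated as distinct libraries.

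The ligand genes, the receptor, signalling and marker lists and the tests were chosen with earlier results of these data known. All tested ligand genes are named. Called genes, and up to 5 uncalled genes with the highest level per length, are given in every library. Untested genes are named at 10 or more counts, and up to 6 called genes per direction are named from each other list. BIRC2 and TNFAIP3 are named besides, since their calls moved. Some genes were left out of these lists and are not reported here.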

Additional observations from a re-analysis of the deposited data

How the results depend on the processing

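Higher and lower ligand genes numbered 11 and 3, and higher and lower genes of the receptor and signalling lists 25 and 9. Except at over 2-fold, the share of all tested genes called under each alternative is not given here. Counts under the alternatives therefore show only whether calls moved. Without a fold threshold 11 ligand genes were higher and 5 lower. At over 2-fold 7 were higher and 1 lower, and 7 and 2 of the lists, where 4.07% of all tested genes were called in either direction. The 7 higher ligand genes include IL24 and IL33, which needed KO libraries to pass the filter. Leaving out 1 library at a time gave 9 to 10 higher and 2 to 3 lower ligand genes, and 23 to 25 and 6 to 9 of the lists. DESeq2 called 9 and 2 ligand genes and 24 and 6 of the lists. Libraries with the same replicate number showed no shared deviation (correlations of deviations -0.072 to 0.050). Whether they were paired in preparation is not stated in the labels. The replicate block gave 11 and 3 ligand genes and 25 and 9 of the lists. With 1 library left out, the log2 fold change turned sign for CCL26 (-0.55 to 0.0016), CXCL11 (-0.0036 to 0.34) and IL1A (-0.16 to 0.49). The cause was not tested. IL33, IL1B, IL11, CXCL8, CXCL1, IL6, LIF, IL32, CSF2, CSF1 and CXCL10 were called in the same direction under every alternative fit that tested them, with CSF1 from -1.10 to -0.97 and IL33 from 3.29 to 3.55. Counts of genes with few reads, such as IL24, limit what can be called at this depth.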
